A study of Homo sapiens with 24 samples.

Results

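Peaks called with a MYC-tag antibody in parental PC9 cells that carry no tagged protein were set against peaks called with the same antibody in osimertinib-resistant PC9-OR cells that express tagged METTL7A. The wild-type members are the 83 peaks named PC9_WT_MYC, the second of 2 peak-calling runs in the parental wild-type list. The METTL7A members are the 4870 peaks of the second run in the PC9-OR METTL7A list, the rows after its peak number restarts. Together they are 4953 of the 6236 deposited peaks. The rule that picks them uses name and place in the list, and not any measured value, but it was set with earlier results of these data known.

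The wild-type group is PC9, a human lung adenocarcinoma line driven by mutant EGFR, untreated and without a construct. The METTL7A group is PC9-OR, kept in 1 uM osimertinib, an inhibitor of the EGFR kinase, and overexpressing METTL7A with a MYC-tag and FLAG. Each group has 2 immunoprecipitated libraries and 2 inputs among the 24 libraries of the series, and no source used here ties a run to a library. Cell line, drug and tagged protein all differ between the groups, so their parts in any difference cannot be told apart. No source used here gives the promoter that drives the construct or says whether the cells are a clone.

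Chromatin immunoprecipitation recovers the DNA fragments held by an antibody, and a peak is a stretch where more fragments pile up than in the surrounding sequence. Untagged cells are the usual control in such an experiment, because any peak in them forms without the tagged protein. The MYC tag is a short peptide taken from human c-MYC, a transcription factor, so the cells' own c-MYC carries the same sequence. METTL7A belongs to the methyltransferase-like proteins and is best known from lipid droplets and from endoplasmic reticulum membranes, outside the nucleus. Whether endogenous c-MYC contributed to any peak was not tested, since the sequence under the peaks was not analysed here.

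Of the 83 wild-type peaks, 13 overlapped a METTL7A peak by at least 1 bp, 15.7% with an exact (Clopper-Pearson) 95% interval of 8.61 to 25.3% that covers counting error only. A further 7 lay within 1 kb of one, which brought the count to 20, or 24.1%, with an upper limit of 34.7%. For comparison, METTL7A peaks covered 0.0772% of the bases of the genome, and 0.376% of bases lay inside or within 1 kb of one. A stretch as wide as a wild-type peak meets more than a base does. On average over their widths, 0.132% of genome start positions gave an overlap and 0.424% came within 1 kb. With a −log10 q of at least 5 in both runs, which 4 wild-type and 430 METTL7A peaks reach, 1 overlap was left and 2 wild-type peaks lay within 1 kb. The overlap left was the deep 11p15.4 segment described below, and the other near peak was in 5p13.2. Against the first METTL7A run, with 67 peaks, no wild-type peak overlapped or lay within 1 kb. Seen from the second METTL7A run, 13 of 4870 peaks, 0.267%, overlapped a wild-type peak, and 24, or 0.493%, lay within 1 kb of one. The other 4857 METTL7A peaks overlapped no wild-type peak, and 70 wild-type peaks overlapped no METTL7A peak. The METTL7A run held 58.7 peaks for each wild-type one, so most of its peaks could not be matched under any arrangement. The shared positions are tag-independent only in that 1 run without tagged protein called a peak overlapping them by at least 1 bp. The METTL7A peaks with no partner are not shown to depend on the tag. With 1 run on each side there is no replicate of this comparison and no test of it.

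The first run of the parental wild-type list, named PC9_MYC, did not call these positions. It held 1143 peaks, and none of them overlapped a second-run wild-type peak or lay within 1 kb of one; 7 of the 83 had one within 100 kb. Of those 1143 peaks, 2, or 0.175%, overlapped a second-run METTL7A peak and 15, or 1.31%, lay within 1 kb. Its peaks were thin, with 2 to 4 fragments, while those of the second run had 5 to 246. The first METTL7A run placed 2 of 66 peaks (3.03%, 0.369 to 10.5%) on a second-run METTL7A peak and 8 within 1 kb. Parental PC9 with METTL7A placed 2 of 56 (3.57%, 0.435 to 12.3%) there, and 1 of these was the 11p15.4 segment described below. The higher share in the second wild-type run was not tested against these runs.

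**Figure D1:**
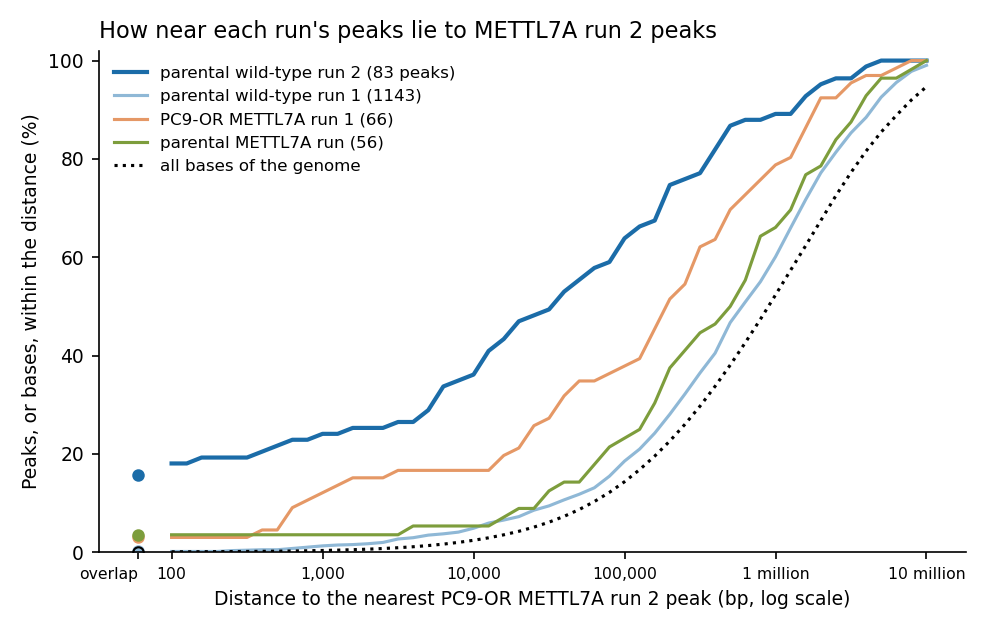
Percentage of each run's peaks (lines), and of all bases of the genome (dotted), that lie within a given distance of a second-run PC9-OR METTL7A peak, on a log axis in bp; the points at the left give overlap by 1 bp. The second wild-type run lies above the other runs from overlap, where it is at 15.7%, to 1 Mb, where it is at 89.2% against 52.3% of bases.

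Beyond 1 kb the wild-type peaks went on lying near METTL7A peaks. Within 10 kb there were 30 of 83 (36.1%) against 2.45% of bases, and within 100 kb 53 (63.9%) against 14.4% of bases. Both counts include the 20 peaks within 1 kb. In the first wild-type run the same distances took in 4.90% and 18.5% of peaks. The median distance from a second-run wild-type peak to the nearest METTL7A peak was 34544 bp, and 9 peaks were more than 1 Mb away. Just inside the 1 bp rule was an overlap of 57 bp in 16q24.3, and just outside it were gaps of 64 bp in 5p15.33 and 65 bp in 1q42.13. At the 1 kb limit the last pair inside was 960 bp apart, in 22q11.23, and the next outside 1559 bp apart, in 20q13.33.

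METTL7A peaks are crowded, and the share of nearby sequence they take up was measured. For each wild-type peak, the share of start positions within 1 Mb at which a peak of its width would meet a METTL7A peak was added up, with assembly gaps counted as sequence. The sum was 0.839 peaks for overlap, against the 13 seen, and 2.54 for 1 kb, against the 20 seen. In the first wild-type run the sums were 1.76 against 2 seen and 5.99 against 15 seen. In the first METTL7A run they were 1.40 against 2 and 3.17 against 8. In parental PC9 with METTL7A they were 0.0773 against 2 and 0.282 against 2. The sums average over 1 Mb to each side and do not account for finer crowding of METTL7A peaks. Merging METTL7A peaks within 10 kb of each other left 3561 stretches. These sums describe coverage and carry no p-value. At 1 bp the second wild-type run was thus at 15.5 times its local coverage, the first at 1.13 times, the first METTL7A run at 1.43 times and parental PC9 with METTL7A, on 2 peaks, at 25.9 times. At 1 kb parental PC9 with METTL7A was at 7.08 times and the second wild-type run at 7.89 times, so a count above local coverage was not limited to the second wild-type run.

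The 13 shared positions lay on 7 chromosomes. Their intervals are given in GRCh37, 1-based, by cytogenetic band, since no gene annotation of that build was used and no exon, intron or promoter is assigned. A fragment number is the pile-up at the summit, recovered from the deposited fold enrichment and p-value. Fold is the deposited enrichment of the summit over local background.

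Chromosome arm 5p held 5 of the 13. The band 5p15.33, which holds TERT, the catalytic subunit of telomerase, had a pair of them. At chr5:671918-672454 the wild-type peak had 5 fragments and a fold of 4.96, and the METTL7A peak at chr5:671447-672773 had 9 and 7.46. At chr5:745767-746113 the wild-type peak had 6 fragments and a fold of 5.78, and its partner, chr5:745758-746616, had 10 and 6.32. Both wild-type peaks lay wholly inside the METTL7A peak. A second METTL7A peak, chr5:669788-671092, lay 825 bp from the first of them with 10 fragments.

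The other positions of this arm were near its centromere side. In 5p13.2, chr5:34193080-34193481 had 8 fragments and a fold of 7.43 in wild type, and chr5:34193100-34193490 had 7 and 5.97 in METTL7A. The summits were 24 bp apart, the closest of all pairs. A second METTL7A peak, chr5:34190778-34192702, lay 377 bp away with 12 fragments and a fold of 9.70, rank 12 of the METTL7A run. In 5p13.1, chr5:41870165-41870498 had 6 fragments in both runs, under the METTL7A interval chr5:41870118-41870879. Another METTL7A peak, chr5:41869364-41869784, lay 380 bp from it with 5 fragments. A second 5p13.1 position, chr5:41904257-41904570, had 8 fragments against 11 at chr5:41904008-41904559.

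Chromosome arm 5p is 1.56% of the genome by length. It held 9 wild-type peaks (10.8%), 286 METTL7A peaks (5.87%) and 5 of the 13 shared positions (38.5%), while 5q held 4, 128 and 0. The 4 peaks of 5q are too few for their 0 to be set apart from the 15.7% of all wild-type peaks. Without the arm, 8 of 74 wild-type peaks were shared, 10.8% (4.78 to 20.2%), against a local coverage sum of 0.551.

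The segment in 11p15.4, the band of the beta-globin gene HBB, stood apart by its depth. It spanned chr11:5246148-5247336 in wild type with 246 fragments and chr11:5246149-5247343 in METTL7A with 680, the highest number in each run. The local background there was 117 and 257 times the commonest background of the run. Among the 13 positions this was the only one also called in another run, those of parental PC9 with METTL7A and of PC9-OR wild type. Leaving it out gave 12 of 82, 14.6%, against a local coverage sum of 0.838.

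In 17q21.31, chr17:41400325-41401036 had 12 fragments in wild type and the METTL7A peak chr17:41400007-41401045 had 18. Here too the local background was raised in both runs, at 7.82 and 6.52 times the commonest one. The fold was 4.91 in wild type and 5.89 in METTL7A. Copy number at these 2 positions was not measured here.

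Chromosome 16 held a pair of shared positions near the end of its long arm. In 16q24.1, chr16:84212970-84213244 had 6 fragments and chr16:84212795-84213193 had 9, with folds of 5.78 and 6.82. In 16q24.3, chr16:89235131-89235443 had 6 and chr16:89234676-89235187 had 7, and only 57 bp, or 18.2% of the wild-type peak, were common. A second METTL7A peak at chr16:89233516-89234274 lay 856 bp from it, with 10 fragments and a fold of 8.20.

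The remaining 4 positions were single ones in their arms. In 11q13.3, the band of CCND1 (cyclin D1, a driver of cell-cycle entry), chr11:70005718-70005987 had 5 fragments and chr11:70005861-70006538 also had 5. In 10q11.21, chr10:44501013-44501282 had 6 and chr10:44500708-44501096 had 4, the METTL7A minimum. In 2q37.3, chr2:241829429-241829786 had 6 and chr2:241829076-241829655 had 7. In 4q35.2, chr4:189203925-189204272 had 6 and chr4:189203674-189204083 had 7. Chromosome 4 is otherwise sparse in both runs, with 2 wild-type and 69 METTL7A peaks.

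**Figure D2:**
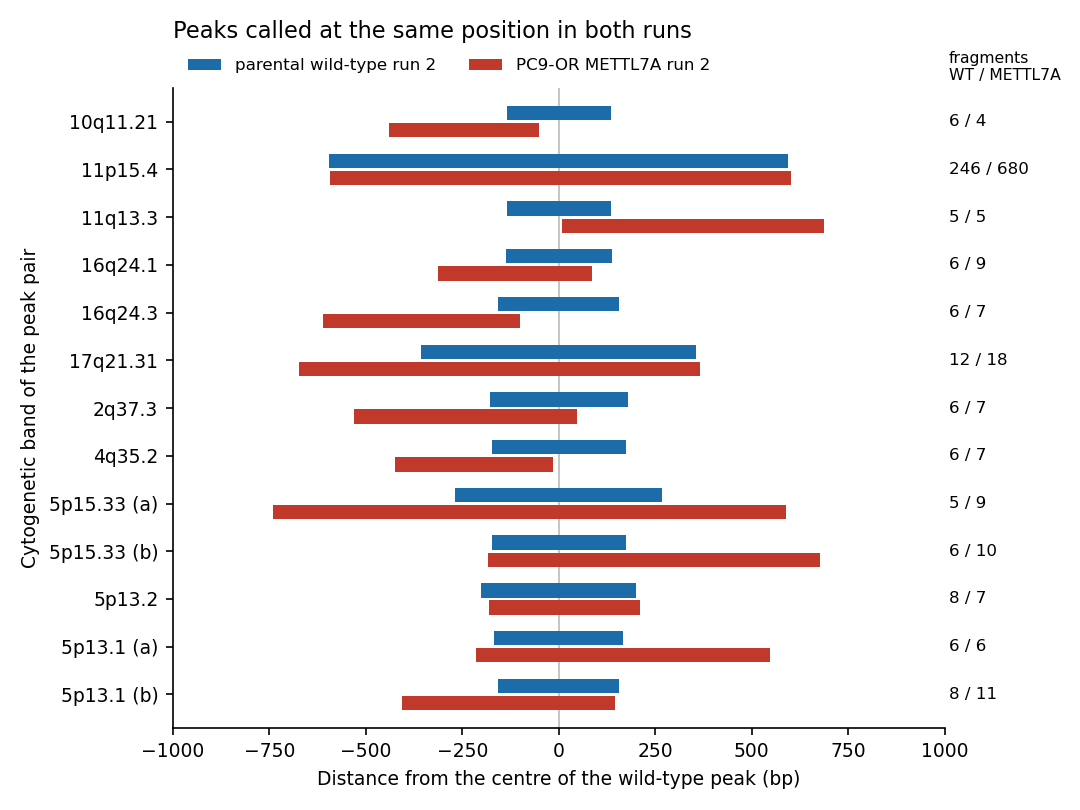
Extent of the wild-type (blue) and METTL7A (red) peak at each of the 13 shared positions, in bp from the centre of the wild-type peak, with the recovered fragments of both at the right. Only the 11p15.4 and 5p13.2 pairs nearly coincide; in the 10q11.21 and 16q24.3 pairs just the flanks meet.

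Overlap ranged from 57 to 1188 bp, with a median of 303 bp; 4 wild-type peaks lay wholly inside their partner, and 1 shared as little as 18.2% of its length. The wild-type summit lay inside the METTL7A peak in 10 of 13 pairs and the METTL7A summit inside the wild-type peak in 8. Summits were 24 to 624 bp apart, with a median of 216 bp, and 5 pairs were within 100 bp. The METTL7A peak was the wider in 12 pairs, all but 5p13.2. Peaks without overlap differed the same way, with a median width of 398 bp in METTL7A and 312 bp in wild type. A wider METTL7A peak is thus not particular to the shared positions. The METTL7A peak had more fragments in 9 pairs, as many in 2 and fewer in 2. The median ratio of METTL7A to wild-type fragments was 1.17, and the ratio of the runs' commonest backgrounds, 0.341 and 0.211, was 1.62.

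The 7 wild-type peaks within 1 kb but with no base in common included 2 in 8q24.3, 1 at chr8:142446471-142446809, 351 bp from a METTL7A peak, and 1 at chr8:145016678-145017067, 149 bp from one. The others lay in 5p15.33 at chr5:1074274-1074596 (64 bp), 1q42.13 at chr1:228260475-228260775 (65 bp), 9q34.2 at chr9:137302836-137303128 (423 bp), 16q24.3 at chr16:88802953-88803221 (504 bp) and 22q11.23 at chr22:24825689-24826038 (960 bp). All 7 had 5 to 7 fragments.

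Shared and unshared wild-type peaks rested on similar fragment numbers. The overlapping peaks had a median of 6 fragments (range 5 to 246) and the 70 others a median of 6 (5 to 12). Median fold was 5.78 in both sets. Widths were a median of 347 bp (270 to 1189) for the overlapping peaks and 312 bp (259 to 601) for the others. A wider peak meets others more easily, so width is not independent of the overlap rule. Fragment numbers of 5 to 8 made up 78 of the 83 peaks, and 11 of the 13 shared ones, so nearly all of these calls rest on a handful of fragments.

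**Figure D3:**
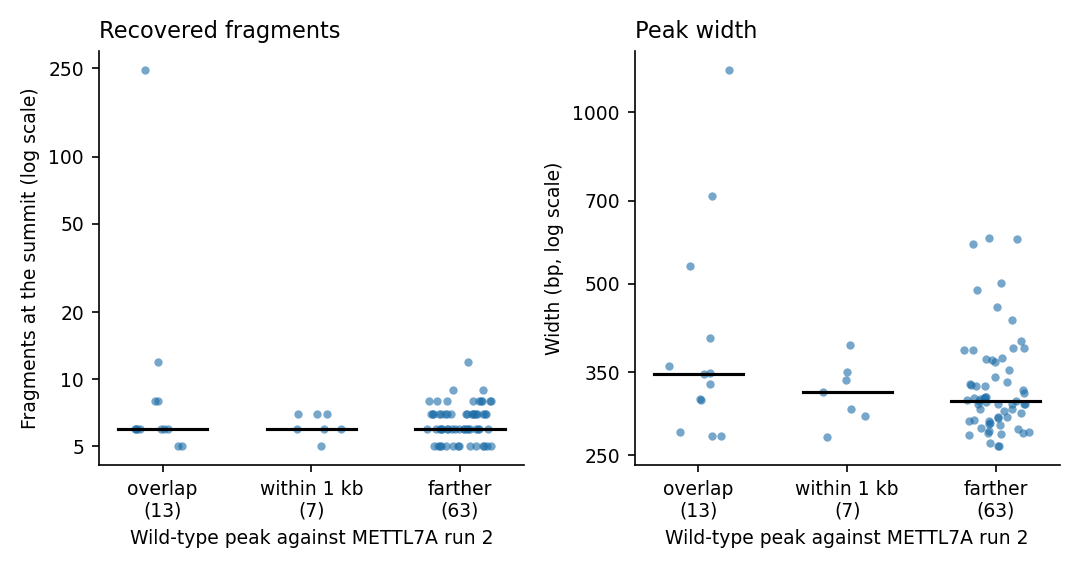
Recovered fragments at the summit (left) and width in bp (right) of the 83 wild-type peaks, both on log axes, split by their place against second-run METTL7A peaks; bars are medians. The median is 6 fragments in each class, and the 11p15.4 segment is the single point at 246 fragments and 1189 bp.

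On the METTL7A side the shared peaks were broader at the median and had a higher median fold, 5.89 against 4.63. Their median width was 580 bp (389 to 1327) against 398 bp (314 to 3769) for the 4857 others, and their median fragment number 7 (4 to 680) against 6 (4 to 317). By width, 0.123% of METTL7A peaks under 400 bp were shared and 1.43% of those of 1000 bp or more, 3 peaks in each class. By fragments, 2 of 1929 peaks with 4 or 5 were shared (0.104%) and 4 of 476 with 10 or more (0.840%). Here too width is not independent of the overlap rule. METTL7A peaks with more fragments were also wider, at a median of 372 bp with 4 or 5 and 566.5 bp with 10 or more. Of the 13, 8 ranked among the 1000 highest folds, which are 20.5% of the run. None of the 25 highest folds overlapped a wild-type peak, and 1 of them, in 5p13.2, lay within 1 kb. Over the whole run 0.267% of peaks overlapped one and 0.493% lay within 1 kb, so 25 peaks are too few to be read either way.

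Wild-type peaks also fell in the same parts of the genome as METTL7A peaks where they did not touch them. Cytogenetic bands with more METTL7A peaks per Mb than the genome mean of 1.57 are 205 of 862 bands and 22.4% of the length. They held 58 of the 83 wild-type peaks, 69.9% (58.8 to 79.5%), and 25.2% (22.7 to 27.8%) of the first wild-type run. In the first METTL7A run the share was 44.8% (32.6 to 57.4%), and in parental PC9 with METTL7A it was 14 of 56 peaks (14.4 to 38.4%). Of the 63 wild-type peaks farther than 1 kb from a METTL7A peak, 40 were still in these bands. Bands without any METTL7A peak are 32.9% of the length and held 4 wild-type peaks (4.82%), against 21.5% of the first run.

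By chromosome, 22, 5, 16 and 20 were the densest in the wild-type run, at 3.63, 2.68, 2.48 and 2.37 times the number their length gives. METTL7A was at 4.16, 1.45, 2.29 and 5.81 times on the same chromosomes. Across 24 chromosomes, peaks per Mb of the 2 runs had Pearson's r of 0.76 and Spearman's rho of 0.78, and the first wild-type run against METTL7A had 0.30 and 0.47. Across 48 chromosome arms the second wild-type run had 0.64 and 0.65 and the first 0.40 and 0.55. Across 862 bands the values fell to 0.34 and 0.27 for the second run and 0.049 and 0.23 for the first. By rank, the 2 wild-type runs were thus close over bands. These are descriptions over regions that share gene density and base composition, which were not measured here. Chromosomes 20 and 22 held 9 wild-type peaks, with no overlap and 1 pair within 1 kb. Over all wild-type peaks the shares were 15.7% and 24.1%, and 9 peaks are too few to be set apart from these.

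**Figure D4:**
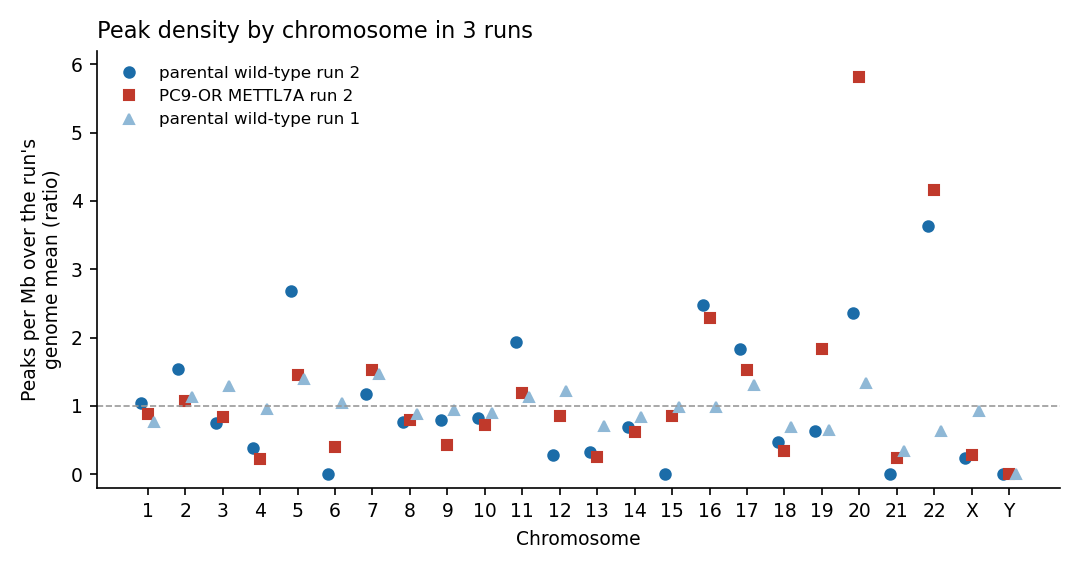
Peaks per Mb on each chromosome as a ratio to the run's own genome mean (dashed line at 1) for the second wild-type run (circles), the second METTL7A run (squares) and the first wild-type run (triangles). The second wild-type and METTL7A runs are both above the mean on 2, 5, 7, 11, 16, 17, 20 and 22, and the first wild-type run is below it on 22, at 0.633.

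The bands with several wild-type peaks show the same unevenness. There were 15 bands with at least 2, and 14 of them exceeded the genome mean of METTL7A peaks. The band 5p15.33 held 4 wild-type and 182 METTL7A peaks, 2q37.3 held 3 and 106, 16q24.3 held 3 and 46, and 20q13.33 held 3 and 264. None of the 3 wild-type peaks of 20q13.33 overlapped any of those 264, but 3 peaks are too few to be set apart from the overall 15.7%. The other 11 bands, with 2 wild-type peaks each, were 1p34.2, 1q42.13, 5p13.1, 5q32, 5q35.1, 7p11.2, 8q24.3, 11q13.5, 17q25.3, 22q12.2 and 22q13.1, and of these 22q13.1 was below the mean.

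Among bands of genes named for their role in lung cancer or in the construct, 7p11.2, the band of the receptor kinase gene EGFR, held 2 wild-type and 33 METTL7A peaks, none shared. The nearest METTL7A peaks were 460446 and 61190 bp away. The band of the adaptor gene CRKL, 22q11.21, held 0 wild-type and 128 METTL7A peaks. The bands of MET (7q31.2, a receptor kinase gene), MYC (8q24.21) and METTL7A (12q13.12) held 0 wild-type peaks and 0, 5 and 10 METTL7A peaks. Bands are far larger than genes, and these counts describe the bands. Only 63 of all 862 bands held any wild-type peak, so a count of 0 sets none of these bands apart. The 2 peaks of 7p11.2 are likewise too few for the lack of sharing to be read.

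Chromosome ends were filled in both runs. Within 5 Mb of an end, 7.75% of the genome by length, lay 25.3% (16.4 to 36.0%) of wild-type and 33.0% of METTL7A peaks, but 5.77% (4.49 to 7.29%) of the first wild-type run. Of the 20 wild-type peaks within 1 kb of a METTL7A peak, 10 lay there.

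The 5 wild-type peaks of highest fold without overlap had folds of 7.01 to 7.43. In 18p11.22, chr18:8856982-8857346 had a fold of 7.43 and 8 fragments, and the nearest METTL7A peak was 1.33 Mb away. In 8q23.1, chr8:107282199-107282513 had 7.01 and 9 fragments, also with none within 1 Mb. In 2q37.3, chr2:239049538-239050138 had 7.42 and 8 fragments, in 5p14.1, chr5:28077863-28078194 had 7.02 and 12, and in 17q25.1, chr17:72915826-72916136 had 7.01 and 8. These 3 lay 18277, 5745 and 95564 bp from a METTL7A peak. Unshared peaks in 5p15.31 and 5q35.1 and the shared 5p13.1 peak at chr5:41904257-41904570 had the same fold as the 17q25.1 peak, and 8 fragments each, so the fifth place is a tie. Among the 6 highest folds of the wild-type run, 2 were shared, those of 11p15.4 and 5p13.2, and the latter equalled the 18p11.22 peak.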

How the data were processed

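DNA from MYC-tag immunoprecipitations and inputs was sequenced as paired ends, 20M reads per library per the labels' protocols. Read totals were not used here. The submitters' processing notes name MACS2 2.2.7.1, Bowtie2 2.4.2, bedtools 2.30, Trimmomatic, FastQC and SAMtools 1.16 on build GRCh37. Settings and the peak-calling control were not stated in any source used here. The deposited lists give each peak's fold enrichment (a ratio to local background), −log10 p, −log10 q and score, the authors' values. At shared positions, folds and fragments of both runs are set side by side. They were not put on a common scale. A new run begins where the peak name changes or its number restarts, 10 runs in 6 lists.

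Fragments were recovered as the whole number that gives both the deposited fold, (fragments + 1) / (background + 1), and the Poisson tail p-value. This succeeded for all 6236 peaks, the worst at 0.537 of the rounding tolerance. Tested on made-up pairs, 495 of 495 gave the right number and 0 of 495 decoys passed. Overlap meant 1 bp in common and nearness at most 1 kb between peaks. GRCh37 bands were read from circlize, and genes were placed in bands from textbook knowledge. Python 3.11.15, pandas 2.3.3 and scipy 1.17.1 were used. No test across samples was possible with 1 run a side. Sequences were not printed, because the tables used here are on GRCh38. Members, lists and the named-peak rule were chosen with earlier results of these data known. Named are all shared and near pairs, the 5 highest folds without overlap (ties by chromosome name and start), bands with at least 2 wild-type peaks and the bands of 8 genes.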

Additional observations from a re-analysis of the deposited data

How the results depend on the processing

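In all, 36 alternatives were run, and in 26 the value kept within 1.5 times the main count or, for a median, within 0.5 of the interquartile range of the shared peaks. The rule compares counts and not shares. It thus counts the first wild-type run at 1 kb among the 26, though 15 of 1143 peaks (1.31%) stand there against 20 of 83 (24.1%). With a −log10 q of at least 5 in both runs, 1 of 4 wild-type peaks was shared at 1 bp, that of 11p15.4. Within 1 kb lay 2 of them. With a −log10 q of at least 2, 10 of 61 were shared and 13 lay within 1 kb. The wild-type list itself shrinks to these totals, so the counts alone do not show a lower share. Putting the other run in place of the second left 0 to 2 shared at 1 bp and 0 to 15 within 1 kb. The lower value is that of the first METTL7A run and the higher that of the first wild-type run. Dense bands then held 288 peaks of the longer first wild-type run. Within 100 kb lay 53 wild-type peaks. Asking for 50% of the narrower peak gave 9 shared, and a median of 9 fragments in the shared METTL7A peaks in place of 7. Without chromosome arm 5p, an alternative chosen after seeing the data, 8 were shared. No paired analysis was possible because each side is 1 peak-calling run with no replicate number of its own. Depth limits the comparison: most wild-type peaks rest on 5 to 8 fragments, so a position called in 1 run only is not shown to be absent from the other.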
